A study of Homo sapiens with 6 samples.

Results

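The BCL2 family decides whether a cell opens the outer membrane of its mitochondria and dies by apoptosis. The members described here are 10 genes taken by name: the effectors BAX and BAK1, the BH3-only genes BBC3, PMAIP1, BID, BIK and BCL2L11, and the anti-apoptotic genes BCL2, BCL2L1 and MCL1. All 10 of the 10 symbols were found among the 55882 rows of the count table, and all 10 were among the 22352 genes that passed the filter on low counts. BIK passed it through the p53 KO libraries, where its counts were high.

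The samples were DIvA cells, a U2OS osteosarcoma line engineered so that 4-hydroxytamoxifen (4-OHT) sends the DNA-cutting enzyme AsiSI into the nucleus. The groups were 3 libraries of p53 WT cells and 3 of p53 KO cells, and cells of both groups carried the DIvA system and were kept in 300 nM 4-OHT for 5 h. Untreated cells are not analysed here, and both groups stand for cells with induced breaks. The labels state neither how p53 was knocked out, nor how many clones were used, nor whether replicates were separate cultures, and p-values then measure only the spread between these samples.

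Apoptosis of this kind is run by protein contacts within the family. Effectors form pores in the outer mitochondrial membrane, anti-apoptotic members hold effectors and BH3-only proteins in check, and BH3-only proteins switch the effectors on or occupy the anti-apoptotic members. The tumour suppressor p53 is a transcription factor that DNA breaks activate, and BBC3 (the protein PUMA), PMAIP1 (the protein NOXA) and BAX are long known as genes it induces. The comparison of p53 KO with p53 WT shows how the transcripts of the family differ with and without p53 when breaks are present.

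Values of single libraries are given throughout in the order of replicates 1, 2 and 3 of a group, p53 WT ("with p53") before p53 KO ("in the knockout"). Total counts per library ranged from 20393909 to 79767519, and the replicate 3 libraries were the shallowest of each group. CPM below is the count scaled to the size of the library. The mesenchymal and bone marker list summed to 5019 to 5654 CPM in p53 WT and 3298 to 3739 CPM in p53 KO libraries, with 4 of 6 called lower, 1 (COL1A1) higher and COL1A2 near 0 in both. Epithelial markers summed to 8.97 to 14.4 CPM in p53 WT and 16.3 to 25.2 CPM in p53 KO, with 1 of 6 (CLDN7) called higher. The part of either marker list in the results below was not tested. The 5 endothelial markers found summed to at most 5.07 CPM and the 6 leukocyte markers to at most 3.38 CPM in any library, and CD3E had 1 count in all.

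Without p53, 3 pro-apoptotic transcripts of the family fell strongly, BBC3, PMAIP1 and BAX, and the anti-apoptotic BCL2L1 fell to a smaller degree. BIK and BID rose. BAK1, BCL2L11, BCL2 and MCL1 did not pass the test. By edgeR at an adjusted p under 0.05, 6 of the 10 members differed (5 of 9 when BIK is left aside), where 26.5% of all tested genes did. Of the members 4 were lower, against 14.4% of all tested genes, and 2 were higher, against 12.1%. Without BIK 1 of 9 was higher, a share near that background. For 7 of the 10 members all knockout values lay on 1 side of all p53 WT values, as they did for 40.8% of all tested genes. BIK is 1 of these 7, and it passed the filter through the p53 KO libraries. The median log2 fold change of the members was -0.12, beside 0.0052 over all tested genes, with members moving both ways. These are bulk libraries, in which fewer cells that express a gene and less RNA of it per cell cannot be told apart.

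**Figure D1:**
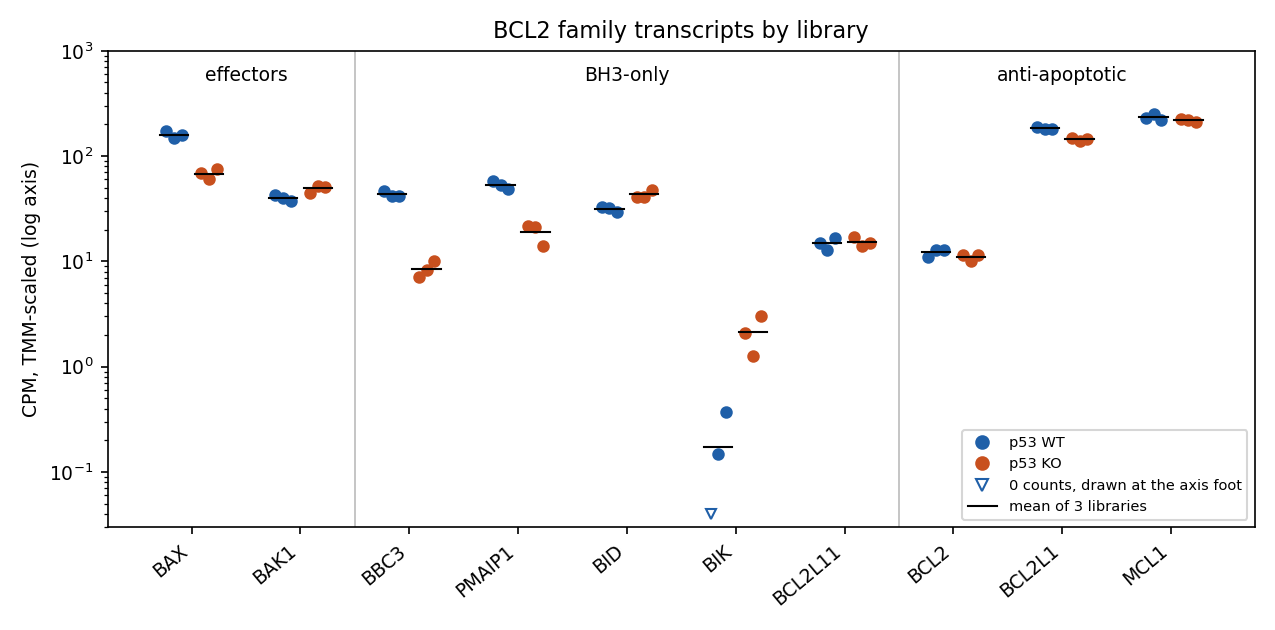
CPM of each BCL2 family transcript (log axis) in the 3 p53 WT and the 3 p53 KO libraries, drawn left to right as replicates 1, 2 and 3, with the mean as a bar and a triangle at the foot for the BIK library with 0 counts. The p53 KO points of BAX, BBC3, PMAIP1 and BCL2L1 lie below all p53 WT points, those of BAK1, BID and BIK above, and the groups overlap for BCL2L11, BCL2 and MCL1.

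BAX and BAK1 encode the pore-forming effectors. BAX was at 174, 149.8 and 157 CPM with p53 and at 68.5, 61.0 and 74.6 CPM in the knockout. The highest p53 KO library was below the lowest p53 WT library by a wide margin, and the mean went from 160.1 ± 12.3 to 68.1 ± 6.81 CPM (SD, n = 3). The fall was 2.35-fold (log2 fold change -1.24, SE 0.11, adjusted p = 1.87e-06 by edgeR). BAK1 went the other way in its values, with 42.9, 39.6 and 37.7 CPM with p53 and 44.7, 52.4 and 51.3 CPM in the knockout. The ranges of BAK1 were adjacent without overlapping, and the log2 fold change of 0.30 (95% interval 0.058 to 0.55) had an adjusted p of 0.0663 by edgeR. BAK1 lay close to the threshold: over 15 alternatives its adjusted p ran from 0.0418 to 0.258, and in 5 of them, DESeq2 among them, it was called higher. In the authors' deposited table BAK1 had an adjusted p of 0.0375.

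BBC3 and PMAIP1 encode BH3-only proteins, PUMA binding all anti-apoptotic members broadly and NOXA binding MCL1 above all. BBC3 was at 46.6, 41.8 and 41.6 CPM with p53 and at 7.05, 8.30 and 10.1 CPM in the knockout. Transcripts of BBC3 thus stayed detectable in every p53 KO library, while no p53 KO value came near the p53 WT range. The fall of 5.18-fold (log2 fold change -2.37, SE 0.15, adjusted p = 1.15e-07 by edgeR) was the largest decrease among the members, and 1.52% of all tested genes had a log2 fold change at or below that of BBC3. PMAIP1 was at 57.9, 52.9 and 48.7 CPM with p53 and at 21.5, 21.1 and 14.0 CPM in the knockout. The p53 KO replicate 3 library was the lowest for PMAIP1 and, among p53 KO libraries, the highest for BBC3 and BAX. PMAIP1 fell 2.79-fold (log2 fold change -1.48, SE 0.16, adjusted p = 1.06e-05 by edgeR).

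BBC3, PMAIP1 and BAX were the 3 members that the authors' deposited table marks as intersecting a p53 cistrome, a set of sites bound by p53. The authors' deposited table marks 124 genes, and all 124 were called higher in p53 WT there, among 2704 such genes, so that the mark is not independent of the direction of change. The windows of 250 bases before the RefSeq start of these 3 genes (GRCh38.p14, gene strand) are shown because these genes carry the mark and fell, although the mark gives no position, with capitals for the p53 consensus of 2 abutting decamers, allowing up to 3 mismatches outside the core C and G of each decamer.
PMAIP1 (chr18:59899746-59899995, plus strand): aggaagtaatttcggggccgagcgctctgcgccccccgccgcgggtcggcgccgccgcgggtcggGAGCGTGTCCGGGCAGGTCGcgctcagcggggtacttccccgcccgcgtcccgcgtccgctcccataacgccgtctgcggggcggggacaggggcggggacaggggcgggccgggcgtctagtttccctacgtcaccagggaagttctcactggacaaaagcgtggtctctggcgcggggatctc
BBC3 (chr19:47232668-47232917, minus strand): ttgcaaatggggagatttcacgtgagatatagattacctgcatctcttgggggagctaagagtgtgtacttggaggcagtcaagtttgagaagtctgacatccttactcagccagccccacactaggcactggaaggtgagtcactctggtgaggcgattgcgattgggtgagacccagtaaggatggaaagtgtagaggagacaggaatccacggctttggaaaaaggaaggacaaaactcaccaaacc
BAX (chr19:48954625-48954874, plus strand): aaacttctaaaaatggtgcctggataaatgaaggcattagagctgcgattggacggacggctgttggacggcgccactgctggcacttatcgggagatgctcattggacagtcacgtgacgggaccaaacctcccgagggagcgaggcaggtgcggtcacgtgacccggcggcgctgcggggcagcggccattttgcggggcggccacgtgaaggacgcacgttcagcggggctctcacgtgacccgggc

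The PMAIP1 window held 1 such match of 20 bases, with 3 mismatches, whose first base lies 185 bases before the start. The consensus reads the same on both strands, so both were searched at once, and 0.914% of the 35116 windows in the RefSeq table held a match. The BBC3 and BAX windows held none, which says only that these letters are not in these windows. RefSeq windows were found for 8 of the 10 members, 13 windows in all since BID and BCL2L1 have several starts, and the PMAIP1 window was the 1 with a match. An exact single decamer occurred in 1 of the 13 windows, that of BAK1 (GGACATGCTC, 73 bases before the start), and in 5.57% of all windows. The windows of the members ranged widely in GC content, from 47.6% for 1 of the BID starts and 49.2% for BBC3 to 78% for another BID start. A match of letters does not show binding.

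The other 3 BH3-only members were not called lower. BID encodes a protein that caspase-8 cleaves and that links death receptors to the mitochondria. BID was at 33.2, 32.3 and 29.6 CPM with p53 and at 40.9, 40.8 and 47.8 CPM in the knockout. All p53 KO values were above all p53 WT values, and BID rose 1.36-fold (log2 fold change 0.44, SE 0.12, adjusted p = 0.0123 by edgeR). The call of BID was lost without p53 WT replicate 2 or replicate 3 (adjusted p = 0.0514 and 0.0655 by edgeR), and its adjusted p over 15 alternatives ran from 0.000133 to 0.0655.

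BIK encodes a BH3-only protein of the endoplasmic reticulum membrane. BIK had 0, 10 and 9 counts with p53 and 156, 52 and 60 counts in the knockout. Per library that was 0, 0.149 and 0.370 CPM in p53 WT and 2.11, 1.27 and 3.01 CPM in p53 KO, so the transcript was near the detection limit with p53 and low without it. BIK rose (log2 fold change 3.88, SE 0.89, adjusted p = 0.00478 by edgeR), and 99.6% of all tested genes had a log2 fold change at or below it. BIK passed the filter on low counts through the p53 KO libraries. Its p and its place among the tested genes are therefore not independent of the direction of change. Summed over libraries, the 268 counts in p53 KO against 19 in p53 WT gave a ratio per scaled total of 17.8 (95% exact binomial interval 11.2 to 30.03, counting error only). The size of the BIK rise depended on single libraries: the log2 fold change was 3.12 without p53 WT replicate 1, the library with no count, and 4.83 without p53 WT replicate 3, and it was 5.36 by limma-voom.

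BCL2L11 encodes BIM, an activator of effectors that FOXO factors induce. BCL2L11 was at 14.9, 12.7 and 16.8 CPM with p53 and at 16.98, 14.1 and 14.9 CPM in the knockout. The groups overlapped throughout, and the log2 fold change was 0.06 (95% interval -0.29 to 0.40, adjusted p = 0.838 by edgeR), with its sign turning to -0.044 without p53 WT replicate 2 and -0.022 without p53 KO replicate 1.

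BCL2L1, MCL1 and BCL2 encode the anti-apoptotic proteins BCL-XL, MCL1 and BCL2. BCL2L1 was at 187, 181 and 182 CPM with p53 and at 148, 138 and 146 CPM in the knockout. The replicates of BCL2L1 lay close together in both groups, and it fell 1.27-fold (log2 fold change -0.35, SE 0.089, adjusted p = 0.00936 by edgeR). MCL1, a short-lived protein, was at 228, 249 and 222 CPM with p53 and at 224, 222 and 209.7 CPM in the knockout. The groups of MCL1 overlapped, with a log2 fold change of -0.093 (95% interval -0.29 to 0.10, adjusted p = 0.514 by edgeR). BCL2, the founding member, was at 11.1, 12.8 and 12.9 CPM with p53 and at 11.6, 10.1 and 11.5 CPM in the knockout. The groups of BCL2 overlapped too, with a log2 fold change of -0.15 (95% interval -0.50 to 0.20, adjusted p = 0.570 by edgeR).

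The ratio of BAX to BCL2 counts, an index often used for this pathway, does not depend on the scaling between libraries. It was 15.7, 11.7 and 12.2 with p53 and 5.93, 6.05 and 6.502 in the knockout. Every p53 KO ratio was below every p53 WT ratio. The mean log2 ratio was 3.71 ± 0.23 in p53 WT and 2.62 ± 0.070 in p53 KO (SD, n = 3), a difference of -1.09 with an exact two-sided permutation p of 0.1, the smallest that 3 against 3 libraries can give. With the local medians described next taken off for both genes, an alternative added after seeing the data, the difference was -1.94.

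For 4 of the members, PMAIP1, BCL2, BID and BIK, the genes next to them on the chromosome were lower in p53 KO by their median, whichever way the member itself went. For each member the local median was taken, the median log2 fold change of up to 25 expressed protein-coding neighbours on each side in RefSeq order. It was -0.66 around PMAIP1 and -0.60 around BCL2, both on chromosome 18, and -0.43 around BID, with 31 neighbours, and -0.43 around BIK, both on chromosome 22. Around BAX and BBC3, both on chromosome 19, it was 0.25 and 0.15, and around the other members it lay between 0.0037 and 0.10. When the local median was taken off in the fit, PMAIP1 went from -1.48 to -0.82 on the log2 scale (SE 0.15, adjusted p = 0.00170 by edgeR), and BID from 0.44 to 0.87 (SE 0.12, adjusted p = 0.000133 by edgeR). BCL2 turned from -0.15 to 0.45 (SE 0.16, adjusted p = 0.0747 by edgeR). BAX, BBC3 and BIK had -1.49, -2.52 and 4.31. The local median entered the fit as a fixed value. Its own error is therefore not in the SE and adjusted p given with it taken off, here and below. In that fit 4 members were lower and 2 higher, the same 6 genes as before, where 19.7% of all tested genes were called. Whether the number of gene copies differs between the groups was not tested.

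**Figure D2:**
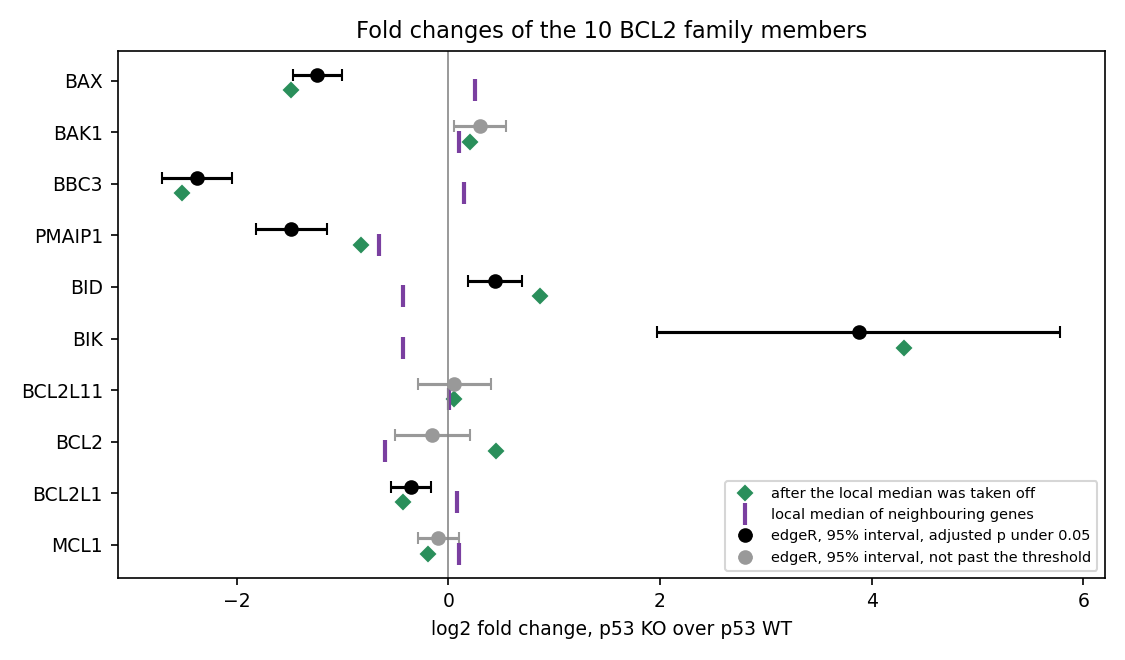
Log2 fold change (p53 KO over p53 WT) of each member with its 95% interval, the local median of its neighbours, and the value after that median was taken off. BBC3, PMAIP1, BAX and BCL2L1 stay below 0 and BID and BIK above 0 in both fits, while BCL2 moves from -0.15 to 0.45.

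The order of the levels changed within the family. To set genes beside each other, CPM was divided by the length of each gene's merged exons in GENCODE 29, an annotation of another build than the authors' alignment. In p53 WT the order of levels per kb was BAX (61.9 ± 4.74 CPM per kb), BCL2L1 (55.3 ± 1.05), MCL1 (53.3 ± 3.18), PMAIP1 (23.8 ± 2.05), BAK1 (18.1 ± 1.19), BBC3 (13.6 ± 0.899), BID (7.12 ± 0.423), BCL2L11 (2.22 ± 0.308), BCL2 (1.04 ± 0.0866) and BIK (0.181 ± 0.195; SD, n = 3 for each). Among neighbours in this order, only the ranges of BCL2L1 and MCL1 overlapped. In p53 KO the order per kb was MCL1 (50 ± 1.79 CPM per kb), BCL2L1 (43.4 ± 1.55), BAX (26.3 ± 2.63), BAK1 (22.4 ± 1.87), BID (9.71 ± 0.902), PMAIP1 (8.45 ± 1.89), BBC3 (2.67 ± 0.478), BCL2L11 (2.30 ± 0.222), BIK (2.23 ± 0.912) and BCL2 (0.939 ± 0.0706; SD, n = 3 for each). In p53 KO the ranges overlapped between BAX and BAK1, between BID and PMAIP1, and along BBC3, BCL2L11 and BIK. BAX thus went from a level per kb above MCL1 and BCL2L1 to one below both, and BBC3 from a level above BID to one below it. The length used matters for the leading genes: with the median length of coding transcripts, chosen after seeing the data, BAX ranked 2 of the 10 in p53 KO and MCL1 ranked 3.

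**Figure D3:**
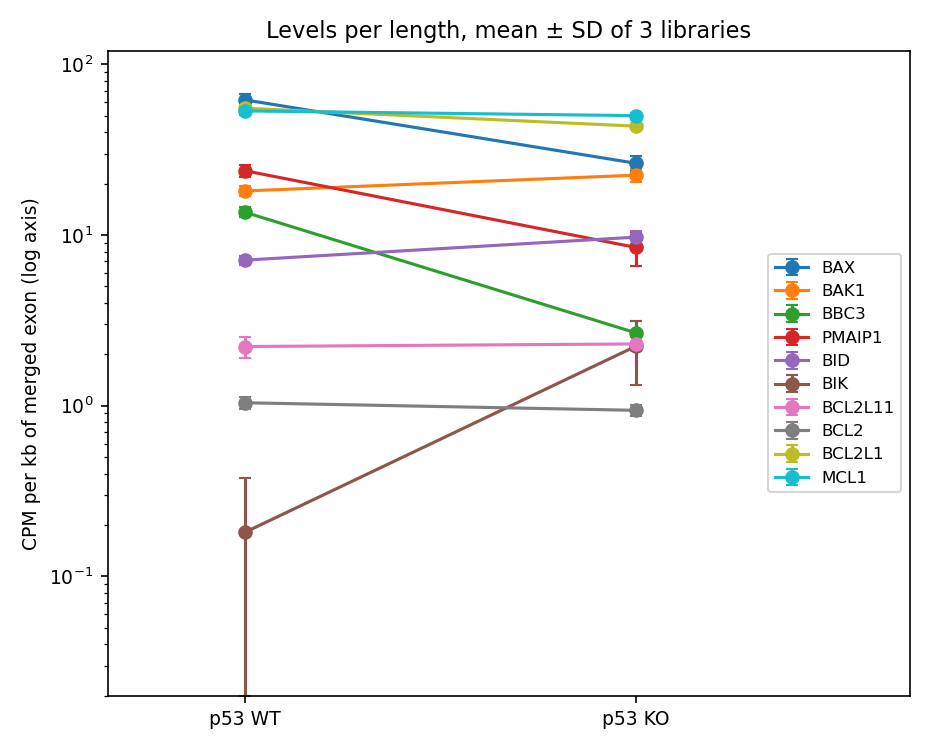
Level per length (CPM per kb of merged exon, log axis) of the 10 members in p53 WT and p53 KO, mean ± SD of 3 libraries, with the lower bar of BIK in p53 WT running to the foot of the axis. The lines of BAX, PMAIP1 and BBC3 go down and cross others, the line of BIK goes up, and those of MCL1, BCL2L11 and BCL2 are nearly level.

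By Euclidean distance of log2 CPM over the 6 libraries, each gene set to its own mean, the 3 of 11573 genes whose pattern was most like that of BBC3 were PLEK2 (distance 0.244), TRNP1 (0.297) and EPHB1 (0.315). For BAX they were HIST2H2BE (0.116), SLC2A1 (0.150) and BTG1 (0.153).

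Of the 10 members, 7 had an adjusted p under 0.05 in the authors' deposited table, the 6 above and BAK1, where 20.8% of all genes with an adjusted p did. Read as p53 KO over p53 WT, the authors' deposited table gives log2 fold changes of -2.35 for BBC3, -1.46 for PMAIP1, -1.21 for BAX, -0.33 for BCL2L1, 0.47 for BID and 3.78 for BIK.

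The wider family holds further effector, BH3-only and anti-apoptotic genes, and the counts that follow stand beside the 26.5% of all tested genes called. Of its 14 other genes 13 were tested, 2 fell (BCL2L2 and BCL2A1), 1 rose (BNIP3) and 10 did not pass, with a median log2 fold change of 0.36. BCL2A1, an anti-apoptotic gene that NF-kB induces, was at 6.62, 6.26 and 4.604 CPM with p53 and at 2.23, 2.20 and 3.91 CPM in the knockout. It fell by 1.11 on the log2 scale (log2 fold change -1.11, SE 0.29, adjusted p = 0.0111 by edgeR), and by 1.88 with the local median taken off (log2 fold change -1.88), while the call was lost without p53 WT replicate 2 (adjusted p = 0.0517 by edgeR). BCL2L2, which encodes the anti-apoptotic BCL-W, went from 46.6 ± 1.99 to 30.9 ± 1.55 CPM (SD, n = 3; log2 fold change -0.59), shares exons with the readthrough gene BCL2L2-PABPN1, and lost its call with the local median taken off (-0.32, adjusted p = 0.0569 by edgeR). BNIP3, a mitophagy receptor, went from 33.7 ± 3.21 to 45.9 ± 2.92 CPM (SD, n = 3; log2 fold change 0.44) and lost its call without p53 WT replicate 3 (adjusted p = 0.0735 by edgeR). BOK, the third effector, had -0.21, and the BH3-only genes BAD, BMF and HRK had 0.38, 0.94 and 0.36 (adjusted p = 0.151, 0.129, 0.228 and 0.584 by edgeR). BCL2L12, BCL2L13, BCL2L14, BCL2L15, BNIP3L and BECN1 had 0.38, -0.076, 1.41, 0.41, 0.084 and -0.15 on the log2 scale, BCL2L14 and BCL2L15 at under 1 CPM, and BCL2L10 was not tested. Over 15 alternatives BCL2L12 (adjusted p = 0.0615 by edgeR) was called higher in 6, DESeq2 among them, and BAD in 3. Leaving out p53 KO replicate 2, or the filter on low counts, gave 5 calls in place of 3 among these genes.

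Downstream of the pore, released cytochrome c and APAF1 assemble the apoptosome, which activates CASP9 and through it the executioner caspases. Of 15 tested genes of this step 5 rose (CASP9, CASP6, AIFM1, PARP1 and DFFA), 1 fell (ENDOG) and 9 did not pass, with a median log2 fold change of 0.14. CASP9, the initiator caspase, was at 4.07, 4.94 and 4.89 CPM with p53 and at 8.90, 9.60 and 11.2 CPM in the knockout, a rise of 1.09 (SE 0.20, adjusted p = 0.00106 by edgeR) on the log2 scale. DFFA, the inhibitor and chaperone of the caspase-activated nuclease, went from 79.8 ± 6.08 to 126 ± 11.2 CPM and PARP1, a nuclear enzyme cleaved by caspases, from 352 ± 11.6 to 446 ± 22.3 CPM (SD, n = 3), rises of 0.66 and 0.34 on the log2 scale (adjusted p = 0.000332 and 0.00943 by edgeR). PARP1 lost its call without p53 WT replicate 1 (adjusted p = 0.0503 by edgeR). APAF1 had 0.23 and CYCS, cytochrome c, had -0.15 on the log2 scale (adjusted p = 0.245 and 0.279 by edgeR). Without p53 WT replicate 1, and likewise without p53 WT replicate 3, 3 of these genes were called in place of 6. AIFM1 and ENDOG lost their calls with the local median taken off (adjusted p = 0.544 and 0.878 by edgeR), and in 8 and 7 of 15 alternatives in all. CASP6 lost its call without p53 WT replicate 3 and without p53 KO replicate 3 (adjusted p = 0.0712 and 0.0503 by edgeR).

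Inhibitors of apoptosis block caspases or the signals that lead to them. Of 6 tested 1 rose and 1 fell, with a median of 0.031, and these, BIRC3 and BIRC2, are side by side in the genome and moved in opposite directions. BIRC3 was at 9.74, 17.6 and 17.9 CPM with p53 and at 49.2, 43.6 and 37.9 CPM in the knockout (log2 fold change 1.54, SE 0.20, adjusted p = 6.49e-05 by edgeR). BIRC2 was at 82.6, 87.6 and 73.0 CPM with p53 and at 57.9, 42.7 and 46.7 CPM in the knockout (log2 fold change -0.72, SE 0.13, adjusted p = 0.000732 by edgeR). The local medians around BIRC2 and BIRC3 were 0.45 and 0.44, and with them taken off the log2 fold changes were -1.17 and 1.10. XIAP, the direct caspase inhibitor, BIRC5 (survivin) and BIRC6 had -0.11, 0.17 and -0.35 (adjusted p = 0.627, 0.298 and 0.137 by edgeR), and BIRC5 was called higher with the local median taken off (0.43, adjusted p = 0.0151 by edgeR).

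Of 12 genes for partners or turnover of BCL2 proteins 3 fell (FBXW7, MOAP1 and BAG1) and 2 rose (USP9X and BAG3), with a median of -0.045. USP9X, a deubiquitinase that stabilises MCL1, rose by 0.91 (SE 0.12, adjusted p = 5.20e-05 by edgeR) on the log2 scale, and by 0.50 with the local median taken off. FBXW7, a ubiquitin ligase subunit that marks MCL1 for degradation, fell by 0.70 (log2 fold change -0.70, SE 0.17, adjusted p = 0.00618 by edgeR), and BAG3, a co-chaperone, rose by 0.55 (SE 0.10, adjusted p = 0.00121 by edgeR), or 1.08 with the local median taken off. Without p53 WT replicate 1 or 2 or p53 KO replicate 1, 3 of these genes were called in place of 5. With the local median taken off MOAP1 turned from -0.69 to 0.30 (adjusted p = 0.411 by edgeR) and BAG1 lost its call (adjusted p = 0.893 by edgeR). Over 15 alternatives the call was lost in 7 for MOAP1 and in 9 for BAG1.

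Among transcription factors known to act on BH3-only genes, TP63 and TP73 rose and 5 did not pass. TP73, a p53 relative, was at 12.2, 12.6 and 10.5 CPM with p53 and at 27.8, 19.9 and 23.5 CPM in the knockout (log2 fold change 1.01, SE 0.16, adjusted p = 0.000356 by edgeR). TP63, the other relative, was at 0.331, 0.401 and 0.452 CPM with p53 and at 2.47, 6.15 and 8.42 CPM in the knockout (log2 fold change 3.85, SE 0.46, adjusted p = 2.80e-05 by edgeR). The p53 KO libraries differed among themselves in TP63 by more than the p53 WT libraries did, yet none came near the p53 WT range.

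**Figure D4:**
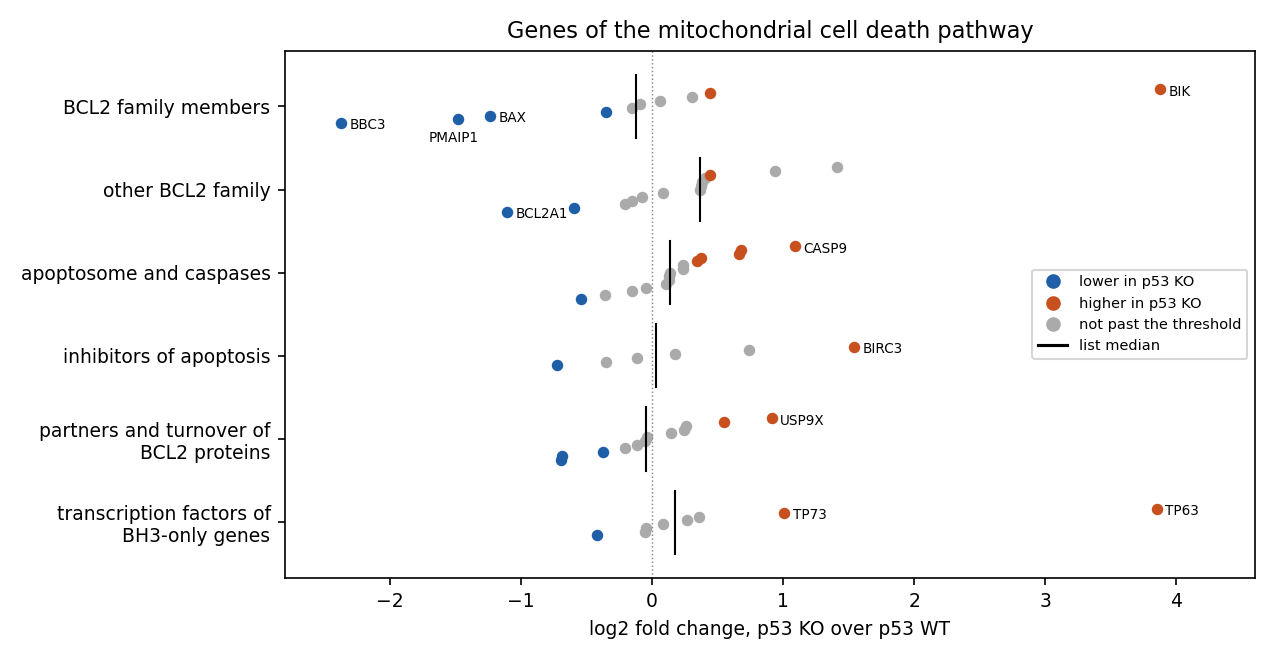
Log2 fold change (p53 KO over p53 WT) of every tested gene in the 6 lists of the pathway, coloured by its call, with the list median as a bar. BBC3 has the lowest value (-2.37) and BIK the highest (3.88), next to TP63 (3.85), and 4 of the 6 medians lie between -0.12 and 0.14.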

How the data were processed

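Polyadenylated RNA of 6 libraries was sequenced with a stranded mRNA kit, per the labels. The authors deposited raw counts per gene symbol. The submitters' processing notes list HISAT2 2.1.0, fastp 0.21.0, DESeq2 1.3.6 and the build GRCh37. The counter, its strand setting and annotation were not given in the sources used here. Genes that overlap others are uncertain, and among the family genes, BAK1, BBC3, BCL2L1, BCL2L11, BCL2L2, BCL2L12, BAD, BMF, BOK, BECN1 and BNIP3L share exon bases with a gene on the opposite strand in GENCODE 29. The deposited comparison table holds, per its file header, a mean signal of normalised counts, log2 fold changes, a test score, p-values and adjusted p-values. Its fold changes were read as p53 WT over p53 KO, since BBC3, lower in the p53 KO counts, is positive there. Its test score has the opposite sign to the fold change in every row.

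The test on the counts was edgeR 4.0.16 under R 4.3.3 (quasi-likelihood F-test, robust, TMM factors, filterByExpr), with Benjamini-Hochberg adjustment over 22352 genes and a threshold of 0.05. CPM are TMM-scaled, and each SE comes from the fold change and its F statistic. A count of 0 allows up to 3 counts, 0.0376 CPM in the deepest and 0.147 CPM in the shallowest library, for counting error only. Replicates of a group were not copies (lowest chi-square per degree of freedom 16.7). Alternatives were other factors and filters, DESeq2 1.42.0, limma-voom (limma 3.58.1), the replicate number as a block, the local median as an offset (neighbours of at least 2 CPM, in RefSeq order) and leaving out each library. Promoter windows are from RefSeq.

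Members, gene lists and tests were chosen with earlier results of these data known. All 10 members and the other BCL2 family genes are named. From each other list the 3 genes with the smallest adjusted p are named, and APAF1, CASP9, CYCS, XIAP and BIRC5 in any case. Other genes named for a call or a lost call were picked after their values were seen. Some genes under these rules are not reported here.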

Additional observations from a re-analysis of the deposited data

How the results depend on the processing

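Over 15 alternatives, BAX, BBC3, PMAIP1 and BCL2L1 were called lower and BIK higher in every one, and the number of members called ranged from 5 to 7. BID lost its call in the fits without p53 WT replicate 2 or 3, and BAK1 gained one in 5. The number of genes called, 5924, ranged from 4160 to 6762, and from 4160 to 6059 when 1 library was left out. With the local median taken off it was 4401. BCL2 had the opposite sign with the local median taken off (0.45), and BCL2L11 without p53 WT replicate 2 (-0.044) and without p53 KO replicate 1 (-0.022), within a range of -0.044 to 0.15 when 1 library was left out. The cause of these changes was not tested. The difference in the log2 ratio of BAX to BCL2 was -1.17 to -0.95 when 1 library was left out, -1.09 with 0.5 counts added and -1.94 with the local medians of both genes taken off (added after seeing the data). Between same-numbered libraries the correlation of deviations was -0.063, 0.16 and -0.24 over 12695 genes for numbers 1, 2 and 3. Deviations were taken from the mean of each group of 3 libraries, so such correlations constrain each other. They cannot settle whether the number marks a batch, and the labels do not state what the number marks. Libraries of different numbers had correlations from -0.45 (p53 WT 1 with p53 KO 2) to 0.43 (p53 WT 1 with p53 KO 3). For p53 WT 2 the values with p53 KO 1 and p53 KO 2 were nearly equal (0.166 and 0.160). What such shared deviations reflect was not tested. With the replicate block 5159 genes and 6 members were called, the same 6, while AIFM1, ENDOG and BAG1 lost their calls (adjusted p = 0.0656, 0.0511 and 0.102 by edgeR), and 0 of the 3 p53 WT libraries correlated best with the p53 KO library of its own number. Among the 10 members BIK had the fewest counts, and its p53 WT values rest on 19.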
